A study of Schmidtea mediterranea with 35 samples.

Results

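Zfp1 RNAi was compared with control RNAi at day 9 in X1 cells, the Hoechst-stained sorting gate that holds the cycling neoblasts of the planarian flatworm Schmidtea mediterranea. The comparison took 4 zfp1 RNAi libraries and 4 unc22 RNAi libraries, 8 of the 35 libraries of the series, chosen by the RNAi target and day in their labels. All animals were adults of CIW4, a clonal line, so every group shared 1 genetic background. The zfp1 animals ate bacteria that made double-stranded RNA of zfp1, mixed into calf liver paste, in 3 feedings spaced 3 days apart. The p53 animals and the control animals were treated in the same way, the controls with unc22, a C. elegans gene that the labels call non-targeting. The other groups drawn on below were zfp1 RNAi at days 6 and 13 (4 libraries each), p53 RNAi at day 9 (4 libraries), and unc22 RNAi at day 6 (4 libraries) and day 13 (3 libraries). The labels tie the RNAi to whole animals and not to a cell type, and they do not say whether replicate libraries came from separate cultures of animals. A p-value here therefore speaks of library spread alone, part or all of which could be technical.

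Neoblasts are the only dividing somatic cells of planarians, and they replace every tissue of the animal. The planarian gene zfp-1 encodes a zinc finger protein and marks the zeta class of neoblasts, whose descendants form the epidermis through a series of short-lived progenitor states. The planarian p53 homolog is also known to be expressed in these cells and their progeny. The deposited table names transcripts only by SMED identifiers. The zfp1 transcript, markers of neoblast classes and epidermal progeny, and markers of other cell types were therefore not analysed here, and transcripts are described by identifier and level. The depth of the knockdown and the purity of the sort were not checked for the same reason.

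Levels were RPKM, reads that the authors scaled to transcript length and to a divisor for each library, and whole reads were recovered from them. The divisor was not the total of the recovered reads. In the day 9 zfp1 libraries it was 0.972, 0.912, 1.08 and 1.09 times that total (replicates 1 to 4). In the unc22 controls it was 1.003, 0.885, 1.04 and 1.06 times the total. A divisor below the total gives a higher RPKM for the same share of reads. The day 9 libraries held 11, 11.7, 19.3 and 26.1 M reads after zfp1 RNAi (replicates 1 to 4), against 11.4, 7.47, 11.6 and 10.3 M reads in the unc22 controls. Between 185 and 1776 of the 25462 transcripts were at 0 in the zfp1 libraries and between 956 and 2887 in the unc22 libraries. The deeper zfp1 libraries therefore had a lower counting floor. The most abundant transcript, SMED30032887, took 14.0 to 15.0% of reads after zfp1 RNAi and 14.5 to 15.9% in the controls. The median SD of a transcript on the log2(RPKM + 1) scale was 0.19 over the 4 zfp1 libraries and 0.23 over the 4 unc22 libraries. Replicates 3 and 4 were the closest pair in both groups, with a chi-square per transcript of 1.89 after zfp1 RNAi and 1.8 in the controls, which is above sampling noise. The p53 libraries of day 9 held 5.88 to 16.5 M reads, with 1047 to 2556 transcripts at 0 and a median SD of 0.30. Their replicates 3 and 4 were the least alike pair, with a chi-square per transcript of 69.4. The highest among zfp1 pairs of day 9 was 22.6 and among unc22 pairs 23.0. No day 9 library stood apart by transcripts at 0 or by its share of reads in SMED30032887. At the other days 3 libraries did, namely zfp1 RNAi replicate 1 at day 6, zfp1 RNAi replicate 5 at day 13 and unc22 replicate 5 at day 13, which had 4945, 5021 and 4546 transcripts at 0 against at most 3588 in any other library. The same 3 libraries gave 25.2, 32.3 and 27.5% of their reads to SMED30032887, against at most 20.5% in any other library. Their divisors were 0.812, 0.674 and 0.617 times their read totals, the lowest of the series. Their RPKM values therefore run high for their share of reads.

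At day 9 few transcripts of X1 cells were called changed after zfp1 RNAi, with falls that were fewer but deeper than the rises. Of 19206 tested transcripts, 621 (3.23%) passed limma's moderated test at a Benjamini-Hochberg adjusted p under 0.05, 415 of them (2.16%) higher and 206 (1.07%) lower after zfp1 RNAi. The groups did not overlap for 204 of the 206 falls and 411 of the 415 rises. Over all tested transcripts, groups that did not overlap were seen for 4.02% in the lower direction and 6.43% in the higher direction. Without adjustment, 1616 tested transcripts (8.41%) had a p under 0.05 in limma. The 3 libraries that stood apart at the other days enter this comparison through the shared spread alone, and without them 970 transcripts were called, all 621 among them. Library quality weights, whose estimation stopped short of its convergence tolerance, raised the count to 1981 and the controls of days 6 and 13, used in place of those of day 9, to 1090, while a filter of 5 RPKM on average lowered it to 241.

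The median log2 fold change was -1.02 over the falls, 0.89 over the rises and -0.01 over all tested transcripts, with a median standard error of 0.23. Among the falls 105 were of at least 1 log2 unit, 21 of at least 2 and 11 of at least 3, and the largest was -4.19. Among the rises 149 were of at least 1 log2 unit, 5 of at least 2 and 0 of at least 3, and the largest was 2.16. As plain ratios of mean RPKM, 41 of the falls kept at most 10% of the unc22 level, 87 at most 25% and 164 at most 50%, and the median fall kept 29.9%. Of the rises, 303 reached at least 2 times the unc22 level, 135 at least 3 times and 17 at least 5 times, with a median of 2.43 times. Of all tested transcripts, called or not, 45 kept at most 10% of the unc22 level, 111 at most 25% and 449 at most 50%. In the other direction 734 reached at least 2 times that level, 257 at least 3 times and 50 at least 5 times. In bulk samples, fewer cells of a type and less RNA per cell cannot be told apart, and this holds for every fall and rise given here.

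**Figure D1:**
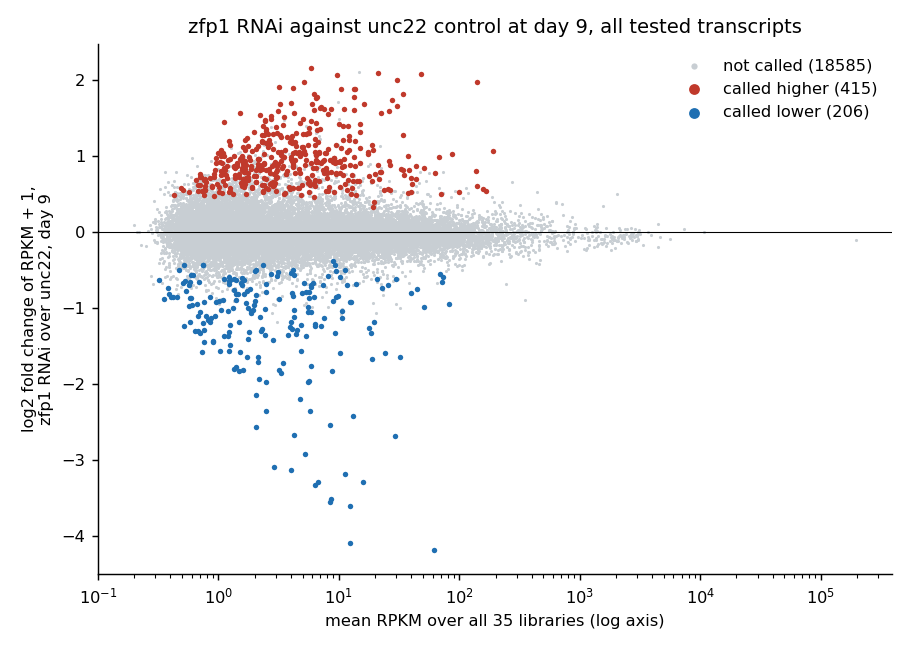
Log2 fold change of RPKM + 1 (zfp1 RNAi over unc22 at day 9, vertical axis) against the mean RPKM over all 35 libraries (log axis) for 19206 tested transcripts, with 415 called higher in red, 206 called lower in blue and the others in grey. The falls reach -4.19, the rises stop at 2.16, and no transcript with a mean of 100 RPKM or more is called lower.

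The called transcripts were mostly of low to middle abundance, as were all tested transcripts. The median of the mean RPKM over all 35 libraries was 2.39 for the falls and 3.94 for the rises. For all tested transcripts it was 3.81. This mean takes in the knockdown libraries, so a fall or a rise itself shifts a transcript's place in it. In the day 9 unc22 controls the order was reversed, with the median transcript at 4.29 RPKM for the falls and 2.03 RPKM for the rises. All tested transcripts were at 3.68 RPKM there, and those controls also helped choose the calls. By mean RPKM over all 35 libraries, the class of 1 to 5 RPKM held 211 rises and 92 falls among 6637 tested transcripts, and the class of 5 to 20 RPKM held 131 rises and 54 falls among 4498. In the class of 20 to 100 RPKM there were 35 rises and 15 falls among 3332 transcripts, and in that of 100 RPKM or more 7 rises and 0 falls among 924. The weakest class, under 1 RPKM, held 3815 tested transcripts and was the only one in which falls (45) outnumbered rises (31). The transcripts were also somewhat long, with a median length of 1293 bases for the falls and 1589 bases for the rises against 1074.5 bases for all tested transcripts. Transcripts under 500 bases were called least often, with 0.599% higher and 0.409% lower of 3671. The lengths were recovered from the values and are those the authors divided by, up to a common factor of the reads.

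Summed over the 206 falls, the level was 887 ± 5.17 RPKM after zfp1 RNAi, with libraries between 883 and 894 RPKM, against 2360 ± 116 RPKM in the unc22 controls, with libraries between 2265 and 2523 RPKM (SD, n = 4 each). Summed over the 415 rises, it was 5248 ± 106 RPKM after zfp1 RNAi, against 2542 ± 100 RPKM in the controls. These sums were chosen by the same libraries and are a description, with no test. By the median transcript, the falls were at 0.879 to 1.28 RPKM in the zfp1 libraries, against 4.01 to 4.70 RPKM in the controls. The falls made up 0.145% of all reads after zfp1 RNAi and 0.346% in the controls. The rises made up 0.873% of reads after zfp1 RNAi and 0.444% in the controls.

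The deepest falls were in 11 transcripts that lost at least 3 log2 units. They kept between 2.03 and 8.47% of the mean unc22 level, and all 11 had every zfp1 library below every unc22 library. Their lengths were 571 to 1460 bases, with 7 of 11 under 1000 bases, a length class that held 47.0% of all tested transcripts. The set of 11 was bounded after the values were seen, and 10 of them also come under the naming rule given with the methods.

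SMED30023708 (1035 bases) was the most abundant of the 11 and showed the largest log2 fold change of all. It had 5.22, 3.71, 10.9 and 11.1 RPKM in the 4 zfp1 libraries, against 194, 136, 129 and 133 RPKM in the unc22 libraries. Its lowest control library was more than 10 times its highest zfp1 library, and control replicate 1 was above the other 3 controls. The log2 fold change was -4.19 ± 0.26 (SE, limma, Benjamini-Hochberg adjusted p = 6.0e-13). SMED30012332 (1460 bases) had 1.47, 1.22, 1.47 and 1.27 RPKM after zfp1 RNAi, against 33.7, 38.6, 43.7 and 42.3 RPKM in the controls. It was nearly flat among the zfp1 libraries, and it fell by 4.10 ± 0.17 on the log2 scale (limma, Benjamini-Hochberg adjusted p = 7.1e-17).

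SMED30002134 (616 bases) had 1.51, 0.152, 0.932 and 3.42 RPKM after zfp1 RNAi, against 23.8, 29.2, 24.4 and 28.3 RPKM in the controls. SMED30011419 (573 bases) had 1.14, 0.163, 0.418 and 2.33 RPKM after zfp1 RNAi, against 22.5, 20.6, 20.2 and 20.3 RPKM in the controls. SMED30014876 (737 bases) had 2.78, 0.508, 1.10 and 3.76 RPKM after zfp1 RNAi, against 26.0, 22.4, 21.4 and 26.6 RPKM in the controls. In these 3 transcripts replicate 2 was the lowest zfp1 library and replicate 4 the highest, while the controls were close together. The values of replicate 2 rested on 1 read for SMED30002134, 1 read for SMED30011419 and 4 reads for SMED30014876, so their counting error is wide. The log2 fold changes were -3.61 ± 0.43, -3.56 ± 0.32 and -3.18 ± 0.37 (SE, limma), with Benjamini-Hochberg adjusted p of 6.4e-07, 2.5e-09 and 5.0e-07.

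SMED30035904 (728 bases) had 0.768, 0, 0.592 and 1.64 RPKM after zfp1 RNAi, against 15.9, 16.2, 14.0 and 16.9 RPKM in the controls. Replicate 2 held 0 of its reads, which allows a level of up to 0.386 RPKM, the worth of 3 reads in that library, for counting error only. SMED30011490 (670 bases) had 0.696, 0.698, 1.64 and 0.944 RPKM after zfp1 RNAi, against 22.0, 24.6, 17.7 and 22.6 RPKM in the controls. SMED30020396 (571 bases) had 0.653, 0.655, 0.419 and 1.05 RPKM after zfp1 RNAi, against 11.7, 20.4, 16.5 and 14.4 RPKM in the controls. SMED30008505 (1052 bases) stayed higher, with 3.01, 1.69, 4.09 and 3.81 RPKM after zfp1 RNAi, against 39.9, 28.8, 40.3 and 47.9 RPKM in the controls. The log2 fold changes of these 4 ran between -3.52 ± 0.23 for SMED30011490 and -3.29 ± 0.35 for SMED30020396 (SE), each with an adjusted p of at most 7.6e-08 by limma with Benjamini-Hochberg adjustment.

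Only 2 transcripts were at 5 RPKM or more in every unc22 library and under 1 RPKM in every zfp1 library, and 0 transcripts showed the reverse. SMED30005491 (810 bases) had 0.230, 0.347, 0.532 and 0.304 RPKM after zfp1 RNAi, against 11.9, 14.0, 10.4 and 8.09 RPKM in the controls, and its log2 fold change was -3.14 ± 0.22 (SE, limma, Benjamini-Hochberg adjusted p = 5.4e-12). SMED30002242 (1242 bases) had 0.225, 0.151, 0.116 and 0.255 RPKM after zfp1 RNAi, against 10.5, 7.92, 9.40 and 8.99 RPKM in the controls, and its log2 fold change was -3.10 ± 0.14 (SE, limma, Benjamini-Hochberg adjusted p = 4.3e-16). By ratio of means this was the deepest fall of the 11, with 2.03% of the unc22 level left, since the pseudocount of 1 RPKM understates falls to such low levels. Its zfp1 values rested on 3, 2, 3 and 9 reads, against 150, 65, 140 and 121 reads in the controls.

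What was left of the 11 differed between the zfp1 libraries. Replicate 4 was the highest zfp1 library for 7 of the 11 and the lowest for 0, and replicate 2 was the lowest for 7 and the highest for 0. Replicate 3 was the highest for the other 4, and replicates 1 and 3 were each the lowest for 2. The median level of the 11 was 1.14, 0.508, 0.932 and 1.64 RPKM in zfp1 replicates 1 to 4. Replicate 4 was also the deepest of the 4 libraries. The part of depth in this order was not tested.

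**Figure D2:**
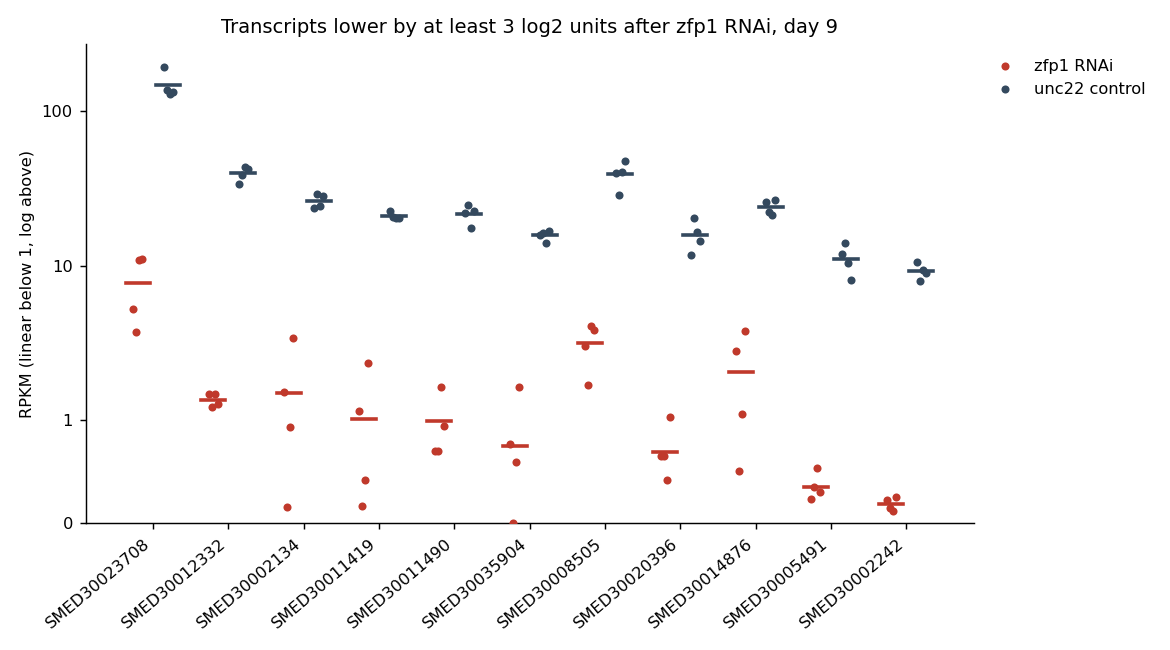
RPKM at day 9 (linear below 1, log above) of the 11 transcripts that fell by at least 3 log2 units, with a point for each of the 4 zfp1 RNAi libraries (red, left) and the 4 unc22 libraries (dark, right) and a bar at each group's mean. Every zfp1 point lies below every control point of its transcript, and 2 transcripts at the right stay under 1 RPKM in all zfp1 libraries.

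The rises were shallower. SMED30035446 (634 bases) had the largest log2 rise, with 6.03, 8.12, 10.9 and 7.31 RPKM after zfp1 RNAi, against 0.687, 0.477, 1.97 and 1.16 RPKM in the controls. Its control values rested on 5, 2, 15 and 8 reads. The log2 fold change was 2.16 ± 0.40 (SE, limma, Benjamini-Hochberg adjusted p = 5.9e-04), and the mean was 7.53 times that of the controls. SMED30026271 (1227 bases) was alike in level, with 6.38, 3.81, 8.11 and 5.12 RPKM after zfp1 RNAi, against 0.781, 0.370, 0.951 and 1.13 RPKM in the controls, and rose by 1.90 ± 0.33 on the log2 scale (limma, Benjamini-Hochberg adjusted p = 2.3e-04).

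SMED30007629 (997 bases) was by far the most abundant of the 8 largest rises. It had 188, 198, 236 and 219 RPKM after zfp1 RNAi, against 47.0, 45.7, 56.6 and 63.0 RPKM in the controls. The groups were far apart for their spread, with means of 210 ± 21.5 RPKM after zfp1 RNAi and 53.1 ± 8.2 RPKM in the controls (SD, n = 4 each), a ratio of 3.96. Its log2 fold change was 1.97 ± 0.21 (SE, limma, Benjamini-Hochberg adjusted p = 8.1e-08).

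SMED30034731 (751 bases) had 43.2, 33.4, 44.6 and 36.9 RPKM after zfp1 RNAi, against 5.68, 6.24, 9.88 and 14.1 RPKM in the controls. SMED30033452 (306 bases) had 63.7, 67.0, 84.5 and 83.6 RPKM after zfp1 RNAi, against 10.2, 18.3, 18 and 22.9 RPKM in the controls. SMED30028565 (324 bases) had 38.3, 43.6, 50.8 and 41.3 RPKM after zfp1 RNAi, against 4.84, 11.2, 12.1 and 14.8 RPKM in the controls. In all 3, replicate 1 was the lowest control library and replicate 4 the highest, and the groups did not overlap. The log2 fold changes were 2.09 ± 0.40, 2.08 ± 0.42 and 2.01 ± 0.44 (SE, limma), with Benjamini-Hochberg adjusted p of 9.9e-04, 0.0019 and 0.0045.

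SMED30024104 (1080 bases) had 18.6, 14.6, 19.9 and 15.6 RPKM after zfp1 RNAi, against 2.02, 3.78, 4.25 and 3.50 RPKM in the controls, and rose by 2.07 ± 0.24 on the log2 scale (limma, Benjamini-Hochberg adjusted p = 3.7e-07). SMED30008087 (1924 bases) had 9.01, 9.73, 11.9 and 12.6 RPKM after zfp1 RNAi, against 2.26, 2.52, 1.56 and 1.68 RPKM in the controls, and rose by 1.98 ± 0.33 (limma, Benjamini-Hochberg adjusted p = 1.4e-04). Both stood at 5 or more times the control mean, with ratios of 5.07 for SMED30024104 and 5.40 for SMED30008087.

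**Figure D3:**
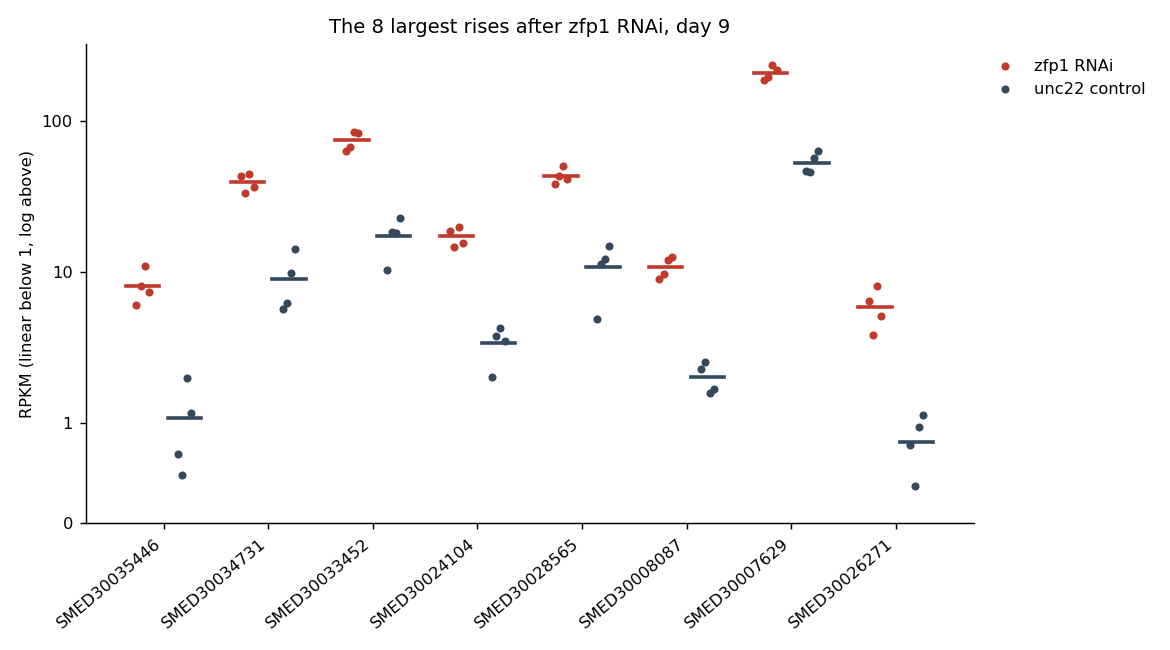
RPKM at day 9 (linear below 1, log above) of the 8 largest rises, with a point for each of the 4 zfp1 RNAi libraries (red, left) and the 4 unc22 libraries (dark, right) and a bar at each group's mean. Every zfp1 point lies above every control point of its transcript, and SMED30007629, at 188 to 236 RPKM after zfp1 RNAi, is the most abundant.

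Of the 3 most abundant falls and the 3 most abundant rises, 5 changed by less than 2 times. SMED30002081 (579 bases), the most abundant fall by mean RPKM over all 35 libraries, had 62.6, 59.0, 65.0 and 61.7 RPKM after zfp1 RNAi, against 116, 130, 120 and 117 RPKM in the controls. Its log2 fold change was -0.95 ± 0.19 (SE, limma, Benjamini-Hochberg adjusted p = 0.0021). SMED30021464 (1800 bases) had 64.6, 68.8, 53.7 and 53.4 RPKM after zfp1 RNAi, against 99.0, 118, 84.4 and 82.5 RPKM in the controls, and fell by 0.66 ± 0.15 on the log2 scale (limma, Benjamini-Hochberg adjusted p = 0.0048). Replicates 1 and 2 were the higher libraries of both groups for this transcript by RPKM, and they had the lower divisors for their read totals. SMED30015227 (1201 bases) had 57.9, 58.3, 61.2 and 57.9 RPKM after zfp1 RNAi, against 93.7, 83.1, 88.2 and 91.5 RPKM in the controls. Its groups were well apart, but its log2 fold change of -0.59 ± 0.17 (SE) passed limma's test only just, with a Benjamini-Hochberg adjusted p of 0.049. The call was lost without any 1 of the 8 libraries and in 12 of 23 alternative analyses in all, with adjusted p of up to 0.15.

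SMED30000949 (1610 bases), the most abundant rise by the same mean, had 231, 237, 185 and 193 RPKM after zfp1 RNAi, against 105, 119, 88.1 and 91.7 RPKM in the controls, a ratio of means of 2.09. Its log2 fold change was 1.06 ± 0.19 (SE, limma, Benjamini-Hochberg adjusted p = 4.8e-04). SMED30017430 (2357 bases) had 207, 221, 182 and 187 RPKM after zfp1 RNAi, against 135, 154, 134 and 125 RPKM in the controls. SMED30025067 (2317 bases) had 187, 198, 158 and 161 RPKM after zfp1 RNAi, against 112, 135, 114 and 111 RPKM in the controls. These 2 were close to each other in size, with ratios of 1.45 for SMED30017430 and 1.49 for SMED30025067 and limma's Benjamini-Hochberg adjusted p of 0.0033 and 0.0022. In all 3 of these rises replicate 2 was the highest library of both groups by RPKM. Replicate 2 also had the lowest divisor for its read total in both, at 0.912 and 0.885. The part of the divisor in this order was not tested.

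Days 6 and 13 were measured in other libraries, so they show the day 9 transcripts in data that did not choose them, though the estimate of the spread was shared. Of the 206 falls, 202 (98.1%) were also lower after zfp1 RNAi at day 6, where 58% of all tested transcripts were. At day 6 limma with Benjamini-Hochberg adjustment called 131 of the 206 lower, against 0.88% of all tested transcripts. At day 13 all 206 were lower, against 47.9% of all tested transcripts, and 167 were called lower, against 2.12%. Both days called 119 of the falls, day 6 alone 12, day 13 alone 48 and neither day 27. The median log2 fold change of the falls was -0.85 at day 6, -1.02 at day 9 and -1.18 at day 13, and that of all tested transcripts was -0.05, -0.01 and 0.02.

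The rises kept their direction too. Of the 415, 396 (95.4%) were also higher after zfp1 RNAi at day 6, against 42% of all tested transcripts, and 64 were called higher, against 0.422%. At day 13, 404 (97.3%) were higher, against 52.1% of all tested transcripts, and 252 were called higher, against 2.31%. Both days called 49 of the rises, day 6 alone 15, day 13 alone 203 and neither day 148. The median log2 fold change of the rises was 0.37 at day 6, 0.89 at day 9 and 0.78 at day 13. The median at day 9 is the one the calls were chosen on, so its height above the other days is no result.

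Without the 3 libraries that stood apart at days 6 and 13, the day 6 calls grew to 159 of the falls and 111 of the rises, against 1.74% of all tested transcripts in the lower direction and 1.19% in the higher direction. The signs shifted little, with 204 falls lower and 391 rises higher at day 6 and 205 falls lower and 407 rises higher at day 13. At day 13 the calls came to 172 of the falls, against 2.3% of all tested transcripts, and 253 of the rises, against 2.4%. At day 13 libraries with the same replicate number deviated together, and so did some with unlike numbers. A fit with the number as a block was also made. Zfp1 replicate 2 had no control of its number, so the block took that library out of the comparison. The block also left fewer degrees of freedom for the spread, and the part of either in the counts below was not tested. On the day 13 groups alone, the fit with the block called 56 of the falls, against 0.333% of all tested transcripts in the lower direction. It called 23 of the rises, against 0.156% in the higher direction. The same groups without the block gave 100 of the falls, against 0.62%, and 67 of the rises, against 0.37%. The falls summed to 1068 ± 191 RPKM after zfp1 RNAi at day 6 against 2264 ± 60.7 RPKM in the controls of that day, and to 1050 ± 180 RPKM (n = 4) at day 13 against 2994 ± 491 RPKM (SD, n = 3). The rises summed to 4397 ± 482 RPKM after zfp1 RNAi at day 6 against 2810 ± 138 RPKM in its controls, and to 4783 ± 379 RPKM at day 13 against 2472 ± 160 RPKM. By share of all reads, the falls were at 0.165% after zfp1 RNAi at day 6 against 0.350% in the controls. At day 13 they were at 0.142% against 0.343%. The rises were at 0.733% against 0.517% at day 6 and at 0.682% against 0.343% at day 13.

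The 11 deepest falls were lower at both other days in the fitted log2 fold changes, but not equally deep at day 6. SMED30012332 was at -3.10 ± 0.17 at day 6, -4.10 ± 0.17 at day 9 and -4.69 ± 0.19 at day 13 (SE, limma). SMED30005491 was at -2.86 ± 0.22, -3.14 ± 0.22 and -3.65 ± 0.23 on the same days. SMED30002134 was at -0.80 ± 0.43, -3.61 ± 0.43 and -4.37 ± 0.46, and its day 6 value was not called (Benjamini-Hochberg adjusted p = 0.67). The difference between days 9 and 6 was not called for any of these 3.

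For SMED30002134 the day 6 value turned on 1 library. It had 59.9, 11.3, 12.7 and 8.79 RPKM after zfp1 RNAi at day 6, against 51.1, 22.8, 30.9 and 22.3 RPKM in the day 6 controls. Replicate 1, one of the 3 libraries that stood apart, was above every control, and the other 3 were below every control. Without the libraries that stood apart the day 6 log2 fold change was -1.39 ± 0.38 (SE, limma, Benjamini-Hochberg adjusted p = 0.042). SMED30014876 was alike, with replicate 1 near the highest control and the others below every control, at 47.1, 9.81, 7.01 and 6.50 RPKM after zfp1 RNAi at day 6, against 47.8, 25.8, 35.4 and 28.5 RPKM in the controls. Its day 6 log2 fold change was -1.37 ± 0.37 (adjusted p = 0.065) with all libraries and -1.99 ± 0.28 (adjusted p = 2.1e-05) without those that stood apart, in limma with Benjamini-Hochberg adjustment. Zfp1 replicate 1 was the highest day 6 zfp1 library for 8 of the 11 falls.

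**Figure D4:**
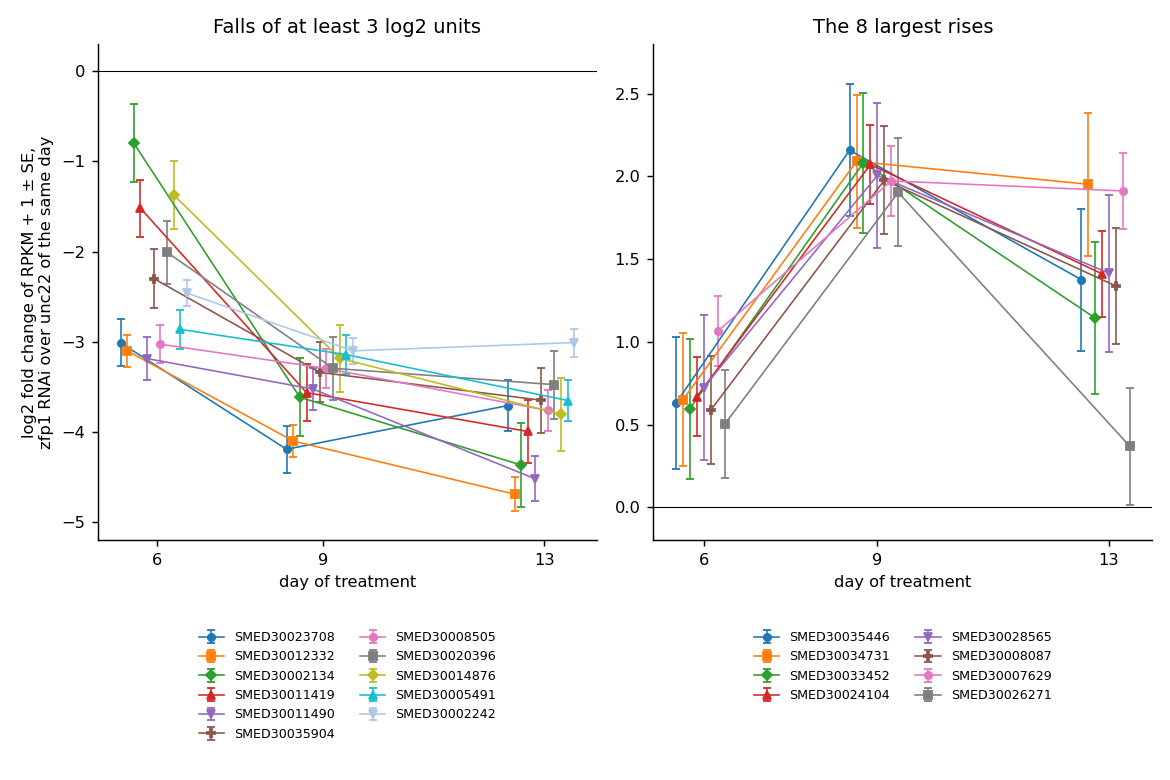
Log2 fold change of RPKM + 1 (zfp1 RNAi over unc22 of the same day, ± SE from limma, vertical axis) at days 6, 9 and 13 of treatment for the 11 falls of at least 3 log2 units (left) and the 8 largest rises (right), with points spread sideways for legibility. All falls lie below 0 and all rises above 0 at the 3 days, and at day 6 the rises lie between 0.50 and 1.06.

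The 8 largest rises were all above 0 at the other days, but few were called there. At day 6 their log2 fold changes lay between 0.50 ± 0.33 for SMED30026271 and 1.06 ± 0.21 for SMED30007629 (SE), and SMED30007629 was the only one of the 8 that limma called at day 6 (Benjamini-Hochberg adjusted p = 0.0031). At day 13 SMED30007629 was at 1.91 ± 0.23, SMED30034731 at 1.95 ± 0.43, SMED30024104 at 1.41 ± 0.26 and SMED30008087 at 1.34 ± 0.35, and these 4 were called (limma, Benjamini-Hochberg adjusted p of 5.4e-07, 0.0042, 4.8e-04 and 0.020). SMED30026271 was at 0.37 ± 0.35 at day 13 and was not called (adjusted p = 0.73 in limma with Benjamini-Hochberg adjustment). With the replicate block at day 13 only SMED30034731 (adjusted p = 0.042) and SMED30007629 (adjusted p = 0.028) of the 8 were called by limma, while SMED30024104 (adjusted p = 0.065) and SMED30008087 (adjusted p = 0.086) were not.

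The day 6 values of these rises also turned on the libraries that stood apart. Without them the day 6 log2 fold changes were 0.06 ± 0.26 for SMED30026271, 0.10 ± 0.40 for SMED30033452, 0.22 ± 0.40 for SMED30035446 and 0.75 ± 0.16 for SMED30007629 (SE, limma), and SMED30007629 was still the only one of the 8 called (Benjamini-Hochberg adjusted p = 0.0081). Without them the day 13 rise of SMED30008087 was 1.21 ± 0.38 and was no longer called (limma, Benjamini-Hochberg adjusted p = 0.072). The day 9 libraries chose these 8 as the largest, so their being higher at day 9 than at other days was in part fixed by the choice.

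Whether the response to zfp1 RNAi differed from one day to another was tested directly, and 1 transcript passed for each pair of days. Between days 9 and 6 limma called 1 of 19206 transcripts (0.00521%) at a Benjamini-Hochberg adjusted p under 0.05, and 633 (3.3%) had an unadjusted p under 0.05. Without the libraries that stood apart 11 were called (0.0573%), of which 9 were day 9 rises and 1 a day 9 fall. Among them were 3 of the 8 largest rises, with the log2 fold change at day 9 above that at day 6 by 1.69 ± 0.29 for SMED30024104, 1.22 ± 0.22 for SMED30007629 and 1.84 ± 0.36 for SMED30026271 (SE, limma, Benjamini-Hochberg adjusted p of 0.0097, 0.021 and 0.037). Since these 3 were picked as the largest at day 9, the day 9 side of the difference was in part fixed by the choice. Between days 13 and 9 limma also called 1 (0.00521%), and 618 (3.22%) had an unadjusted p under 0.05. Both unadjusted shares were below the share that no difference at all would give. The shared spread covered groups of unlike spread, with a median SD of 0.44, 0.19 and 0.34 for the zfp1 libraries of days 6, 9 and 13. The near absence of calls therefore does not show a like response on each day.

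SMED30002500 (972 bases) was high at day 6. It had 29.8, 17.7, 13.6 and 16.3 RPKM after zfp1 RNAi at day 6, against 3.92, 3.61, 2.75 and 3.00 RPKM in the controls, with no overlap. At day 9 it had 4.41, 3.75, 5.91 and 5.82 RPKM after zfp1 RNAi, against 2.42, 2.49, 2.66 and 3.80 RPKM in the controls, and zfp1 replicate 2 lay just under control replicate 4. At day 13 the zfp1 libraries, at 2.79, 3.03, 3.46 and 4.92 RPKM, overlapped the controls at 3.75, 3.78 and 5.03 RPKM. The log2 fold changes were 2.19 ± 0.18, 0.63 ± 0.18 and -0.20 ± 0.20 at days 6, 9 and 13, with Benjamini-Hochberg adjusted p of 9.1e-10, 0.052 and 0.75 (limma). The change of the effect from day 6 to day 9 was -1.55 ± 0.26 (SE, limma, Benjamini-Hochberg adjusted p = 0.026). It was lost in 14 of 30 alternative analyses, which included leaving out any 1 of unc22 replicates 2, 3 and 4 and zfp1 replicate 2 of day 6, or unc22 replicates 3 and 4 and zfp1 replicates 1 and 2 of day 9, while the difference stayed between -1.69 and -1.17.

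SMED30022975 (1740 bases) changed direction. It was higher after zfp1 RNAi at day 6, with 45.0, 48.5, 40.7 and 45.1 RPKM against 31.8, 34.0, 30.9 and 35.1 RPKM in the controls. At day 9 it was higher too, with 63.3, 63.8, 52.3 and 53.1 RPKM against 36.1, 36.3, 35.8 and 33.5 RPKM in the controls. At day 13 it was lower, with 21.7, 26.5, 27.1 and 28.1 RPKM after zfp1 RNAi against 37.2, 34.8 and 40.3 RPKM in the controls. The groups did not overlap on any day, and the controls stayed within a narrow range throughout. Its log2 fold changes were 0.43 ± 0.11, 0.69 ± 0.11 and -0.52 ± 0.12 (SE), each called by limma with Benjamini-Hochberg adjusted p of 0.034, 6.3e-05 and 0.0050. With the replicate block its day 13 fall was not called (limma, Benjamini-Hochberg adjusted p = 0.25). The change of the effect from day 9 to day 13 was -1.21 ± 0.16 (SE, limma, Benjamini-Hochberg adjusted p = 3.1e-04), and it was lost in 2 of 29 alternative analyses, both fits on the compared groups alone, with a value between -1.26 and -1.10.

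Zfp1 RNAi was also set against p53 RNAi at day 9. Both comparisons with the control share the 4 unc22 libraries, so their fold changes are not independent and are given side by side. The median log2 fold change of the 206 zfp1 falls was -1.02 after zfp1 RNAi and -1.04 after p53 RNAi, and that of the 415 zfp1 rises was 0.89 after zfp1 RNAi and 0.69 after p53 RNAi. The zfp1 libraries chose both lists, so the size of the zfp1 medians was in part fixed by the choice. Against the control, limma with Benjamini-Hochberg adjustment called 3.91% of tested transcripts after p53 RNAi. The direct test, which needs no control, called 23 of 19206 transcripts (0.12%) by limma at a Benjamini-Hochberg adjusted p under 0.05, 20 (0.104%) higher and 3 (0.0156%) lower after zfp1 RNAi than after p53 RNAi, and 1486 (7.74%) had an unadjusted p under 0.05. Of the 206 falls 4 were among the 23, and of the 415 rises 4, and all 8 were higher after zfp1 RNAi than after p53 RNAi. For the 4 rises, chosen as high in these zfp1 libraries, that direction was in part fixed by the choice.

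The 4 falls kept more of their level after zfp1 RNAi than after p53 RNAi. SMED30023874 (1260 bases) had 44.9, 50.0, 37.4 and 35.6 RPKM after zfp1 RNAi, 2.71, 2.65, 3.19 and 1.55 RPKM after p53 RNAi, and 72.1, 97.0, 62.2 and 57.2 RPKM in the controls. Its log2 fold change was -0.75 ± 0.20 for zfp1 RNAi (adjusted p = 0.025) and -4.37 ± 0.20 for p53 RNAi (adjusted p = 1.4e-16) against the control, and 3.62 ± 0.20 for zfp1 against p53 RNAi (adjusted p = 1.0e-13), all by limma with Benjamini-Hochberg adjustment. The fall after zfp1 RNAi lost its call in 5 of 23 alternative analyses, 4 of which left out 1 library (unc22 replicate 1 or 2, or zfp1 replicate 3 or 4) and 1 of which thinned the reads to the lowest total, with adjusted p of up to 0.16. The difference between the knockdowns was called in all 22 alternatives run for it.

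SMED30026364 (2047 bases) had 22.1, 22.6, 22.2 and 21.6 RPKM after zfp1 RNAi, 2.70, 1.99, 3.19 and 2.86 RPKM after p53 RNAi, and 70.1, 86.5, 67.6 and 64.9 RPKM in the controls. The 3 groups formed 3 separate levels, and the difference between the knockdowns was 2.66 ± 0.18 on the log2 scale (SE, limma, Benjamini-Hochberg adjusted p = 2.0e-11). The fall after zfp1 RNAi was of like size on each day, with log2 fold changes of -1.75 ± 0.18 at day 6, -1.65 ± 0.18 at day 9 and -1.63 ± 0.20 at day 13 (SE, limma). SMED30023071 (2401 bases) had 7.65, 5.61, 7.18 and 7.14 RPKM after zfp1 RNAi, 2.10, 1.42, 1.11 and 1.67 RPKM after p53 RNAi, and 20.5, 16.5, 19.4 and 18.9 RPKM in the controls. SMED30007385 (970 bases) had 3.36, 3.86, 3.11 and 4.16 RPKM after zfp1 RNAi, 0.671, 0.473, 0.861 and 0.828 RPKM after p53 RNAi, and 14.1, 15.3, 14.6 and 14.7 RPKM in the controls. Both again showed 3 levels without overlap, and the knockdowns differed by 1.62 ± 0.19 for SMED30023071 (adjusted p = 6.2e-06) and 1.44 ± 0.28 for SMED30007385 (adjusted p = 0.019) in limma with Benjamini-Hochberg adjustment. The difference for SMED30007385 was lost in 9 of 22 alternatives, which included leaving out replicate 1, 2 or 4 of either knockdown.

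In 3 of the 4 rises the log2 fold change of p53 RNAi over the control was within 1 SE of 0. SMED30010549 (1773 bases) had 10.5, 11.8, 10.7 and 11.8 RPKM after zfp1 RNAi, 5.87, 3.40, 4.63 and 4.60 RPKM after p53 RNAi, and 5.31, 5.03, 4.47 and 5.47 RPKM in the controls. SMED30012295 (1798 bases) had 14.9, 14.8, 14.4 and 14.6 RPKM after zfp1 RNAi, 8.96, 6.49, 9.17 and 7.85 RPKM after p53 RNAi, and 6.44, 7.15, 8.39 and 7.70 RPKM in the controls. SMED30021317 (2149 bases) had 10.1, 10.5, 9.71 and 10.8 RPKM after zfp1 RNAi, 5.91, 5.40, 5.37 and 5.34 RPKM after p53 RNAi, and 5.64, 6.19, 5.67 and 6.61 RPKM in the controls. In each of these 3 all zfp1 libraries lay above all p53 and control libraries, and the p53 and control libraries overlapped. The knockdowns differed by 1.13 ± 0.15 for SMED30010549, 0.79 ± 0.14 for SMED30012295 and 0.79 ± 0.14 for SMED30021317 (SE, limma, Benjamini-Hochberg adjusted p of 4.4e-05, 0.0080 and 0.0047). The log2 fold change of p53 RNAi over the control was -0.12 ± 0.15, 0.11 ± 0.14 and -0.11 ± 0.14 for them, and none was called. The difference of SMED30012295 was lost in 4 of 22 alternatives, 2 of which left out p53 replicate 2 or zfp1 replicate 1.

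The weakest of the 4, SMED30000537 (669 bases), had 2.23, 2.66, 1.5 and 1.89 RPKM after zfp1 RNAi, 0.243, 0.686, 0.227 and 0 RPKM after p53 RNAi, and 1.43, 0.452, 0.374 and 0.414 RPKM in the controls. The count of 0 in p53 replicate 4 allows up to 0.515 RPKM, and control replicate 1 nearly reached the zfp1 libraries. Its log2 fold change of p53 RNAi over the control was -0.35 ± 0.25 (SE, limma) and was not called. Its rise of 0.91 ± 0.25 after zfp1 RNAi (SE, limma, Benjamini-Hochberg adjusted p = 0.032) was lost in 10 of 22 alternatives, and its difference from p53 RNAi of 1.26 ± 0.25 (adjusted p = 0.021) in 9 of 21. The rise was lost without unc22 replicate 2, 3 or 4 or zfp1 replicate 1, 2 or 4, and the difference without p53 replicate 1, 3 or 4 or zfp1 replicate 1, 2 or 4. At day 13 SMED30010549 and SMED30012295 were again higher after zfp1 RNAi, by 1.37 ± 0.16 and 0.85 ± 0.16 on the log2 scale (SE), and were called by limma with Benjamini-Hochberg adjusted p of 3.0e-07 and 4.3e-04. With the replicate block neither was called at day 13 (limma, Benjamini-Hochberg adjusted p of 0.057 and 0.15). SMED30021317 was not called at day 13 (adjusted p = 1.0 in limma).

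**Figure D5:**
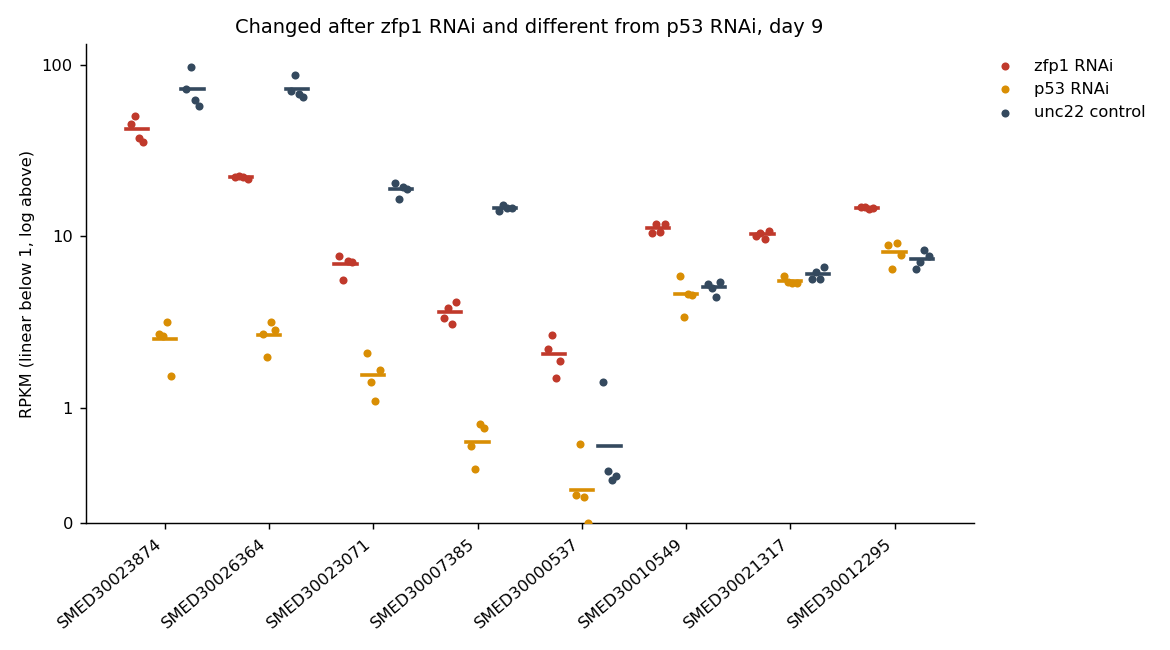
RPKM at day 9 (linear below 1, log above) of the 8 transcripts called after zfp1 RNAi that also differed between the knockdowns, with a point for each of the 4 libraries of zfp1 RNAi (red, left), p53 RNAi (orange, middle) and unc22 (dark, right) and a bar at each group's mean. The 4 falls at the left show 3 levels with p53 RNAi lowest, and the 4 rises at the right have zfp1 RNAi above both other groups.

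A pair of transcripts lower after zfp1 RNAi than after p53 RNAi showed no called change after zfp1 RNAi against the control. Both were called higher after p53 RNAi than in the control. SMED30002689 (245 bases) had 0, 0.764, 2.15 and 0.143 RPKM after zfp1 RNAi, 6.64, 3.75, 6.82 and 7.03 RPKM after p53 RNAi, and 1.07, 0.617, 0.340 and 3.01 RPKM in the controls, where zfp1 and control libraries overlapped. For so short a transcript the zfp1 and control values rested on few reads, so their counting error is wide. SMED30025855 (642 bases) had 0.871, 0.874, 1.71 and 1.64 RPKM after zfp1 RNAi, 2.79, 6.84, 3.31 and 4.65 RPKM after p53 RNAi, and 2.31, 1.65, 1.30 and 1.58 RPKM in the controls. The log2 fold change of p53 RNAi over the control was 1.75 ± 0.44 for SMED30002689 (SE, limma, Benjamini-Hochberg adjusted p = 0.017). For SMED30025855 it was 0.95 ± 0.26 (SE, limma, Benjamini-Hochberg adjusted p = 0.028). The knockdowns differed by -2.12 ± 0.44 for SMED30002689 (adjusted p = 0.037) and -1.21 ± 0.26 for SMED30025855 (adjusted p = 0.044) in limma with Benjamini-Hochberg adjustment, with calls lost in 9 of 21 alternatives for SMED30002689 and 12 of 21 for SMED30025855. Leaving out p53 replicate 1, 3 or 4 or zfp1 replicate 1, 2 or 4 ended the call of SMED30002689, and leaving out p53 replicate 2, 3 or 4 or any 1 zfp1 library ended that of SMED30025855.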

How the data were processed

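PolyA RNA of sorted X1 cells was sequenced after feeding of double-stranded RNA, from 100 ng of RNA per library with the Illumina TruSeq kit, per the labels' protocols. The authors deposited RPKM values for 25462 transcripts. Tools listed in the submitters' processing notes are CASAVA 1.8.2, Bowtie and edgeR, without their roles, and the transcript assembly was not given in the sources used here. Both reads and lengths were recovered with numpy 2.4.6 as the whole numbers of which the deposited RPKM values are multiples, and all values (100%) came out whole within 0.01 reads. Library totals ran from 4391559 to 26115474 reads, and a level resting on few reads is imprecise, which the floors of 3 reads cover alone.

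Limma 3.58.1 in R 4.3.3 was run on log2(RPKM + 1), a scale that understates the change of weakly expressed transcripts. It fitted a mean for each of 9 groups and a trended spread shared by all 35 libraries, on the 19206 transcripts that reached 1 RPKM in 3 or more libraries. Two-sided p-values were adjusted by Benjamini-Hochberg and called under 0.05, and the fit was tested on simulated data. Replicate numbers recur between groups, and at day 13 same-numbered zfp1 and unc22 libraries deviated together from their group means (correlations of 0.52, 0.18 and 0.58). Among pairs with unlike numbers, those without replicate 5 had correlations of 0.14 to 0.50. Those with replicate 5 had -0.56 to -0.19, so the values do not single out a pairing by number. The block rests on these values, as the labels do not say what a number stands for. No gene list or marker list could be applied, since identifiers were not paired with gene names. The transcripts, lists and comparisons were chosen with earlier results of these data known.

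By the naming rule, among calls whose groups did not overlap the text takes the 8 largest falls and rises, the 3 most abundant of each, up to 3 at 5 RPKM or more in every library of one group and under 1 RPKM in every library of the other, and the 2 largest differences each way between days and between knockdowns. SMED30014876, SMED30032887, SMED30023071, SMED30007385 and the 4 rises that differed from p53 RNAi were chosen after their values were seen. Alternatives changed the pseudocount, filter, scaling, threshold, empirical Bayes step, libraries, controls, weights and block. Limma-voom on recovered reads, which called 686 transcripts, and reads thinned to 4391559 per library were added after seeing the data.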

Additional observations from a re-analysis of the deposited data

Results flagged for a closer look

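In 5 of 76 groups of 4 day 9 libraries tested over the 38 named transcripts, 1 library lay far from the other 3 for the group's range. Chance alone gives about 1 such group in 20. SMED30023708 was at 194 RPKM in unc22 replicate 1 against 129 to 136 RPKM in the other 3 controls, and SMED30011419 was at 22.5 RPKM in the same library against 20.2 to 20.6 RPKM. SMED30000537 was at 1.43 RPKM in it too, against 0.374 to 0.452 RPKM in the others. SMED30025067 was at 135 RPKM in unc22 replicate 2 against 111 to 114 RPKM in the other controls. SMED30015227 was at 61.2 RPKM in zfp1 replicate 3 against 57.9 to 58.3 RPKM in the other zfp1 libraries.

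For 2 transcripts a test of the difference found another response to zfp1 RNAi at one day than at the next. For SMED30002500 the log2 fold change at day 9 less that at day 6 was -1.55 ± 0.26 (SE, limma, Benjamini-Hochberg adjusted p = 0.026), with a larger rise at day 6. For SMED30022975 the log2 fold change at day 13 less that at day 9 was -1.21 ± 0.16 (SE, limma, Benjamini-Hochberg adjusted p = 3.1e-04), with a rise at day 9 and a fall at day 13.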

How the results depend on the processing

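Of the 621 transcripts called at day 9, 0 changed sign in any alternative. The number called fell to 241 (173 higher, 68 lower) with at least 5 RPKM on average, where only 242 of the 621 were tested and 238 of those were still called. It fell to 254 (149 higher, 105 lower) with a log2 minimum of 1, and the higher calls fell to 270 at an adjusted p under 0.01 and to 274 with reads thinned to the lowest total, which was 1 random draw. It grew to 1981 (1275 higher, 706 lower) with library quality weights, whose estimation stopped short of its convergence tolerance, to 970 (653 higher, 317 lower) without the 3 day 6 and day 13 libraries that stood apart, and to 1090 (664 higher, 426 lower) with the controls of days 6 and 13. Leaving out 1 library at a time gave 475 to 532 calls, 300 to 351 higher and 165 to 181 lower. Replicate numbers recur in both groups, with same-number correlations of 0.03, 0.61, 0.28 and 0.34, and with 1 of the 4 under 0.1 they were not taken to pair the day 9 libraries. Day 9 zfp1 and unc22 libraries with unlike numbers had correlations of -0.57 to 0.36. Whether the numbers pair these libraries was not tested. A replicate block, fitted to the compared groups by themselves, gave 990 calls (681 higher, 309 lower), against 723 (502 higher, 221 lower) in that fit without the block. It gave 2 calls between knockdowns, against 12 without the block, and 0 between days, as without the block. Among the differences between knockdowns it ended those of SMED30023071, SMED30010549 and SMED30021317 (limma, Benjamini-Hochberg adjusted p of 0.059, 0.17 and 0.19), which no other alternative ended. Between zfp1 and p53 libraries of day 9 the same-number correlations were 0.07, 0.39, -0.39 and 0.47, which vary in sign. The block also leaves fewer degrees of freedom, and the part of that in these lost calls was not tested.

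Between days 9 and 6 the 1 call became 0 with a pseudocount of 0.1 RPKM, cyclic loess, the compared groups alone, limma-voom or thinned reads, 45 with weights, 11 without the 3 libraries, and 0 to 5 without single libraries. Between days 13 and 9 the 1 call became 3 with a pseudocount of 5 RPKM, 2 with quantile normalization, 0 with the compared groups alone, 341 with weights, 2 without the 3 libraries, and 1 to 2 without single libraries. Between knockdowns the 23 calls became 56 with quantile normalization, 38 with cyclic loess, 12 with the compared groups alone, 2762 with weights, 230 without the 3 libraries, and 9 to 19 without single libraries. The cause of these shifts was not tested. The share of calls with the same sign was 93.2 to 98.0% at day 6 and 97.8 to 98.8% at day 13 without single libraries. Transcripts of a few reads per library are limited by depth.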
